A study of Mus musculus with 4 samples.

Results

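The mesenchyme of mouse molar tooth germs was described here through 48 genes of DNA replication and mitosis. They were taken by gene symbol from a list of such genes drawn up with earlier results of these data known, with 20 counted as S-phase genes, which copy the DNA or start its copying, and 28 as G2/M genes, which carry the cell through mitosis. All 48 were found among the 22072 gene names of each library, and all 48 had a mean level of 1 FPKM or more and counted as measured, as did 10536 genes in all. FPKM is a transcript's fragments per kilobase of its length, scaled to the mapped fragments of the library, so levels can be set side by side between genes.

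RNA came from tooth mesenchyme cut by laser from frozen heads at embryonic day 14. The 4 groups were Msx1+/- (control) upper molars, Msx1+/- lower molars, Msx1-/- (mutant) upper molars and Msx1-/- lower molars, all on a strain given only as mixed background, with 1 library in each group. Controls as well as mutants thus carry a mutant Msx1 allele, which the labels do not name, and the series title speaks of wild type where the sample labels say Msx1+/-. Tissue of 3 control and mutant pairs was pooled before extraction, and it is not stated whether the upper molars are from the embryos that gave the lower molars. No group has a second library, so no difference below has a replicate check, and the spread between embryos is unknown. A gene is called lower or higher only if its log2(FPKM + 1) values were 1 or more apart (mutant minus control, or upper minus lower), a scale that understates the change of genes of low level.

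A dividing cell copies its DNA in S phase and separates the copies in mitosis, and each phase has its own set of transcripts. Before S phase, Cdc6 and Cdt1 load the ring-shaped MCM helicase onto replication origins, and Cdc45 and the GINS complex switch it on. The E2F factors, held back by the retinoblastoma protein until cyclin D and cyclin E kinases release them, drive many of the genes of this step. Transcripts of the mitotic cyclins, kinases and kinesins peak later, under factors that read CCAAT boxes and a short element called the CHR. Growing tooth germs depend on division of both epithelium and mesenchyme, and Msx1 is a homeodomain factor of the mesenchyme without which teeth stop early in development.

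The sequences just upstream of these genes are shown first, because E2F-type words and CHR or CCAAT elements are what the S-phase and G2/M genes are known for. RefSeq promoters of build GRCm38.p6 were at hand for 40 of the 48 members, and the 250 bases before each start site were searched on both strands. E2F words were TTTCCCGC, TTTGGCGC, TTTCGCGC and TTTGCCGC, CHR words were TTTGAA and TTCGAA, and the third word was CCAAT. Matches of different E2F words on the 2 strands can overlap. The stretches below end before the first annotated exon, read 5′ to 3′ on the gene's strand, and have the matches in capitals, where ATTGG is CCAAT on the other strand. Shown for the S-phase side are Rrm2, Pcna and Cdc45, the members with the largest differences named later that hold a match (for Pcna only the 30 bases around it, since it lies in an annotated exon), and then Mcm5 and Mcm6, added after the values were seen because they hold E2F words.
Rrm2 (chr12:24708004-24708240, plus strand): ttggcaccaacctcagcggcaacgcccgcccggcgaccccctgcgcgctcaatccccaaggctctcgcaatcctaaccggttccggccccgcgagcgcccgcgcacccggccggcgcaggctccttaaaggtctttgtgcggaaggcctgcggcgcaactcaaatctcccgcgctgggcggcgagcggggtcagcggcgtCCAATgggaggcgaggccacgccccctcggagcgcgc
Pcna (chr2:132253251-132253280, minus strand): aaccacgggtacgATTGGtccttgaggaga
Cdc45 (chr16:18812079-18812222, minus strand): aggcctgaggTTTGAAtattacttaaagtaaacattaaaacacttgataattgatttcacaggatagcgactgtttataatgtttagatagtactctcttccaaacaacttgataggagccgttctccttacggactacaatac
Mcm5 (chr8:75109259-75109508, plus strand): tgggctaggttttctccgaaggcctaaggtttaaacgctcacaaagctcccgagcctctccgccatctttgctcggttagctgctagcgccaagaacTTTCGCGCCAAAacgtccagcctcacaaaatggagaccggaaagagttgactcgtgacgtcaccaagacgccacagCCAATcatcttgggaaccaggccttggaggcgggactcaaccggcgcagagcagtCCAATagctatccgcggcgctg
Mcm6 (chr1:128359706-128359955, minus strand): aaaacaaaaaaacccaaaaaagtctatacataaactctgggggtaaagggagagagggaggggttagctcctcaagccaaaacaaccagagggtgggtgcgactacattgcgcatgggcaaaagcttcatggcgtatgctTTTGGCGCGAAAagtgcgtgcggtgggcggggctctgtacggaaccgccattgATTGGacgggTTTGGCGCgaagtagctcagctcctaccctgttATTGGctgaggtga

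The capitals in Mcm5 mark a pair of overlapping E2F words on opposite strands, 153 and 149 bases before the start, and 2 CCAAT boxes, 77 and 22 bases before it. Mcm6 has such an overlapping pair at 110 and 106 bases and another E2F word at 47 bases before its start. Rrm2 has a CCAAT box 50 bases before its start and none of the E2F words searched. For the G2/M side the stretches are those of Kif23, Ccnb2 and Ttk, by the same choice, and of Cdk1, added after the values were seen as the G2/M member with an E2F word.
Kif23 (chr9:61946800-61947049, minus strand): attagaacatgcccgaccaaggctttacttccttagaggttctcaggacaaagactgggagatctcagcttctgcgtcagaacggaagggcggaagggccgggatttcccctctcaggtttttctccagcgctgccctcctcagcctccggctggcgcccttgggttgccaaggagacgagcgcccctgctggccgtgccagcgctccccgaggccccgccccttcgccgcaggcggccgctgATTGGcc
Ccnb2 (chr9:70421555-70421804, minus strand): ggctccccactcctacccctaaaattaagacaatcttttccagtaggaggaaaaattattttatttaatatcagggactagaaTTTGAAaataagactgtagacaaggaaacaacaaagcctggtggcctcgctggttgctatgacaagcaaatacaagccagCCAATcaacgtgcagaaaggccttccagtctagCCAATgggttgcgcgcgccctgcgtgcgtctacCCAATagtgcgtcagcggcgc
Ttk (chr9:83834439-83834688, plus strand): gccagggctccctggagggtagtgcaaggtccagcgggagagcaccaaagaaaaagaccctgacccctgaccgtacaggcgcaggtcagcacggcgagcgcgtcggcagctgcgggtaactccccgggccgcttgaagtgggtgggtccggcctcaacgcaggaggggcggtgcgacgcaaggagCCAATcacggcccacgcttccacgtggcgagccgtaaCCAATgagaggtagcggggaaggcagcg
Cdk1 (chr10:69352939-69353162, minus strand): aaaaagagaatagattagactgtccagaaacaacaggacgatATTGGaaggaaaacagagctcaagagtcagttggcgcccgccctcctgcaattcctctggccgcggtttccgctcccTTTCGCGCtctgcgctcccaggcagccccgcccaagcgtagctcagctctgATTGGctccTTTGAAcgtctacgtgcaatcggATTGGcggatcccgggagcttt

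Ccnb2 has 3 CCAAT boxes, 87, 54 and 21 bases before its start, evenly spaced, and a CHR word at 167 bases. Cdk1 has an E2F word at 131 bases, CHR words at 71 and 15 bases (the second beyond the stretch shown) and CCAAT boxes at 208, 80 and 48 bases before the start. Over the whole list, an E2F word stood in 6 of 17 S-phase genes with a promoter (35.3%; Mcm5, Mcm6, Mcm7, Cdc6, Uhrf1 and Pola1) and in 1 of 23 G2/M genes (4.35%; Cdk1), against 4.31% of 7557 measured genes and 2.16% of all 27025 genes with a promoter in the RefSeq table. A CHR word stood in 11 of 23 G2/M genes (47.8%) and 3 of 17 S-phase genes (17.6%), against 14.1% of measured genes and 19.6% of all. CCAAT was frequent in both, in 20 of 23 G2/M genes (87.0%) and 12 of 17 S-phase genes (70.6%), against 41.0% of measured genes and 37.5% of all. All 11 G2/M genes with a CHR word also had CCAAT, a combination that 5.56% of measured genes had. The median GC content of the windows was 59.6% for S-phase genes, 61.0% for G2/M genes and 60.4% for measured genes, so base composition was close in the 3 sets. A match is a stretch of letters and not a measured binding site, and factor binding was not measured here.

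Below, the controls come first (upper, then lower molar) and the mutants second (upper, then lower). Coverage of annotated transcripts summed to 410, 324, 395 and 264 megabases, and 10404, 10535, 10563 and 10062 genes reached 1 FPKM. The mutant lower library thus had the lowest summed coverage, and its FPKM values were lower over most genes. Over the 10536 measured genes the genotypes differed by a median of -0.03 in upper molars and -0.39 in lower molars. Differences in lower molars are therefore also given relative to the all-gene median, and after rescaling the libraries by their median of ratios, which left all-gene medians of -0.03 and -0.05. Msx1 itself (chr5:38211730-38215824, mm9) stood at 170, 184, 126 and 85.9 FPKM. It was lower in mutant lower molars (-1.09) and not called in upper molars (-0.43). With the allele unnamed, its transcript level does not check the genotype labels.

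The tissue label was set against marker genes. Summed mesenchyme markers were 1162, 1252, 1246 and 1006 FPKM. Epithelial markers summed to 34.6, 56.1, 59.7 and 82.6 FPKM, with 9 of 15 at a mean of 1 FPKM or more. Of these 9, 5 had both mutants above both controls, against 9.52% of all genes. Krt5 stood at 7.18, 17.0, 21.3 and 28.1 FPKM, Krt15 at 0.865, 1.94, 3.15 and 9.09, and Perp at 0.227, 0.515, 1.34 and 6.13. The defining genes Epcam (0.423, 0.454, 0.914 and 1.27 FPKM) and Cdh1 (0.0426, 0.052, 0.0739 and 0.142) were low in every library and higher in both mutants than in both controls, and Shh was listed at 0 in both controls. Endothelial markers summed to 88.1, 81.4, 68.4 and 62.8, macrophage markers to 39.0, 53.7, 47.4 and 59.3, and erythroid markers to 755, 931, 521 and 674 FPKM. Neuron and glia markers summed to 14.7, 8.14, 22.9 and 9.31 FPKM, and skeletal muscle markers to 5.08, 6.67, 4.12 and 4.87 FPKM. Endothelial and erythroid sums were lower in both mutants than in both controls, as most S-phase members were. The part of other cell types in the values below was not tested.

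Most S-phase transcripts had lower values in mutant than in control mesenchyme, while the G2/M transcripts were spread to both sides of the typical gene. The median S-phase level was 19.8, 18.4, 12.5 and 11.5 FPKM, and the median G2/M level 12.1, 11.6, 12.3 and 9.26 FPKM. The median genotype difference of the 20 S-phase genes was -0.41 in upper molars and -0.80 in lower molars, which is -0.38 and -0.41 relative to all genes. For the 28 G2/M genes it was 0.12 and -0.27, or 0.15 and 0.12 relative to all genes. In FPKM itself, Mcm2, Cdc6, Cdt1, Cdc45, Pcna, Rrm2 and Ccne2 were below control in lower molars by 50.4% (Cdt1) to 70.2% (Rrm2). E2f1 was 64.2% below control in upper molars. The lower-molar percentages include the shift of the whole mutant lower library, where the all-gene median was -0.39. The share of all genes with such a fall in FPKM was not counted. At a log2 difference of 1 or more, 3 of 20 S-phase genes were lower in lower molars, against 9.43% of all genes. After rescaling, 1 S-phase gene, Rrm2, was lower by a log2 difference of 1 or more in lower molars. In pooled tissue, fewer cells in S phase and less S-phase RNA per cell cannot be told apart.

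**Figure D1:**
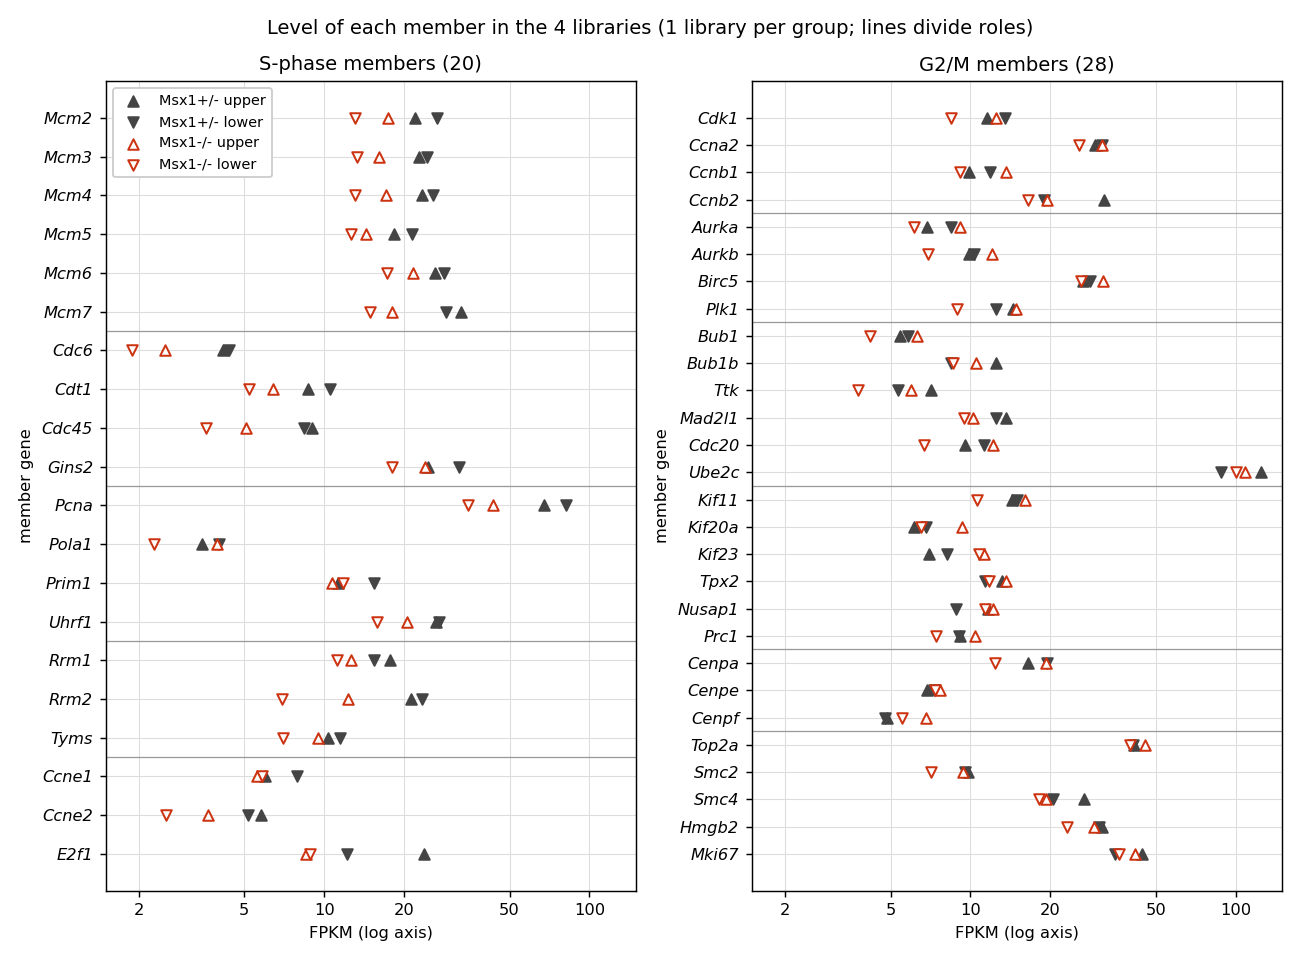
FPKM of the 48 members in the 4 libraries, on a log axis, with S-phase and G2/M genes apart. Both mutant libraries lie below both controls for 18 of 20 S-phase genes and for 4 of 28 G2/M genes, against 41.3% of all genes.

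Few single members passed the call. In upper molars 1 of 48 members was lower, E2f1, and 0 were higher, against 3.26% and 1.07% of all genes. In lower molars 3 of 48 were lower (Rrm2, Pcna and Cdc45) and 0 higher, against 9.43% and 0.864% of all genes. No member was called in both jaws, where 1.59% of all genes were lower and 0.399% higher. Counts of members past the call were thus not above the background, and the S-phase genes were marked by many moderate differences with a shared direction. Both mutant libraries were below both control libraries for 18 of 20 S-phase genes and above them for 0, against 41.3% and 9.52% of all genes. The same held for 4 of 28 G2/M genes (Mad2l1, Smc2, Smc4 and Hmgb2), with 3 above (Kif23, Cenpe and Cenpf). After rescaling, 17 of 20 S-phase genes were below and 0 above, whereas 0 of 28 G2/M genes were below and 11 above, against 27.6% and 20.6% of all genes.

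At a smaller difference of 0.58, or 1.5-fold, 5 of 20 S-phase genes were lower in mutant upper molars, against 9.27% of all genes. G2/M genes gave 1 lower (Ccnb2) and 1 higher (Kif23, where 4.11% of all genes were higher). In lower molars 16 of 20 S-phase and 3 of 28 G2/M genes were lower by that much, against 32.4% of all genes, and 0 were higher, against 2.68%. Mcm7, Cdc45, Pcna and Rrm2 were lower by 0.58 in both jaws, as were 5.78% of all genes. After rescaling, the S-phase count at 0.58 was 5 in upper molars and 4 in lower molars, beside 9.05% and 11.9% of all genes. Then 3 G2/M genes were higher in lower molars, beside 7.57% of all genes. Most of the 16 rested on the lower values of the whole mutant lower library.

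The 6 MCM subunits, the ring of the replicative helicase, all had values below control in both jaws. Mcm7 stood at 32.7 and 28.8 FPKM in controls and at 18 and 14.9 in mutants (-0.83 upper, -0.90 lower), the largest mean difference of the 6. Mcm2 stood at 21.9, 26.7, 17.4 and 13.1 FPKM, and its -0.97 in lower molars lay just short of the call. Both mutants were below both controls for each of the 6 subunits. Their summed level was 145, 156, 105 and 84.2 FPKM. Within a library the most and least abundant subunit differed by 1.78-fold at most, in control upper molars, and by 1.35- to 1.49-fold in the others. The other 4 subunits had differences from -0.47 (Mcm3) to -0.27 (Mcm6) in upper molars and from -0.93 (Mcm4) to -0.69 (Mcm6) in lower molars. The subunits' median was -0.38 and -0.87, or -0.35 and -0.48 relative to all genes. The Mcm7 gene holds the microRNA genes Mir106b, Mir25 and Mir93 within it, so reads of their precursor could count towards it.

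Of the factors that load and fire the helicase, 3 of 4 had a similar pattern. Cdc6, the loader, stood at 4.14, 4.38, 2.51 and 1.89 FPKM (-0.55 upper, -0.90 lower). Its partner Cdt1 stood at 8.67, 10.5, 6.4 and 5.19 FPKM (-0.39, -0.89). Cdc45, which binds the loaded ring at firing, stood at 8.98, 8.37, 5.06 and 3.58 FPKM. It fell in lower molars (-1.03), just past the call, and was at -0.72 in upper molars. For Cdc6, Cdt1 and Cdc45 both mutants lay below both controls by a clear gap. Gins2, a subunit of the GINS complex, differed from them in upper molars, with 24.7, 32.2, 24.0 and 18 FPKM (-0.04 and -0.80). Its control and mutant upper libraries were nearly level, and it overlaps Gse1 in the annotation, from which it may not be separated, since strandedness is not stated.

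At the fork itself, Pcna, the sliding clamp that holds the polymerase on DNA, was the most abundant S-phase member. It stood at 67.3 and 81.8 FPKM in controls and 43.2 and 34.7 FPKM in mutants. It fell in lower molars (-1.21) and was at -0.63 in upper molars. The mouse annotation lists the pseudogene copies Pcna-ps1 and Pcna-ps2, with which reads could be shared. Uhrf1, which brings the methylation of the parent strand to the new one, stood at 26.3, 27.2, 20.6 and 15.8 FPKM (-0.34, -0.75). The catalytic subunits of polymerase alpha and primase, which start each new strand, did not share this pattern. Pola1, of polymerase alpha, stood at 3.46, 4.01, 3.94 and 2.28 FPKM (0.15, -0.61). Prim1, of primase, stood at 11.3, 15.4, 10.7 and 11.8 FPKM (-0.08, -0.36). These were the only 2 of the 20 S-phase members whose genotypes overlapped. For the partner subunits of the same complex, which are not members, both mutants lay below both controls, as for 41.3% of all genes. Pola2 stood at 9.84, 10.4, 8.2 and 7.55 FPKM (-0.21 upper, -0.02 lower, relative to all genes). Prim2 stood at 6.43, 6.84, 5.51 and 5.29 FPKM (-0.16 and 0.07 relative to all genes). Of 22 further polymerase and fork genes, these included, 12 lay apart in that direction.

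Among the enzymes of nucleotide supply, Rrm2 had the largest genotype difference of all 48 members. It encodes the small subunit of ribonucleotide reductase, which makes deoxynucleotides and whose level follows S phase. It stood at 21.3 and 23.3 FPKM in controls and 12.3 and 6.93 FPKM in mutants. It fell in lower molars (-1.61) and was at -0.74 in upper molars, so the mutant lower library was the lowest by far. The large subunit Rrm1 is long-lived as a protein and less tied to S phase. It stood at 17.7, 15.4, 12.6 and 11.2 FPKM, with differences of -0.46 and -0.43, or -0.43 and -0.04 relative to all genes. Tyms, thymidylate synthase, stood at 10.3, 11.5, 9.51 and 7.02 FPKM (-0.11, -0.64), with both mutants below both controls but close to them in upper molars.

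The regulators at the entry to S phase were less alike. E2f1, an activating E2F factor, stood at 23.8, 12.2, 8.52 and 8.83 FPKM. It fell in mutant upper molars (-1.38) and was at -0.43 in lower molars, or -0.04 relative to all genes. The control upper library stood alone at the top, the mutants were level with each other, and the upper against lower difference in controls was 0.90. The cyclins that activate Cdk2 before S phase differed from each other. Ccne2 stood at 5.80, 5.14, 3.65 and 2.53 FPKM (-0.55, -0.80). Ccne1 stood at 5.99, 7.87, 5.6 and 5.81 FPKM (-0.08, -0.38), and its control upper value was only just above both mutants. Ccne2 overlaps Ints8 in the annotation.

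**Figure D2:**
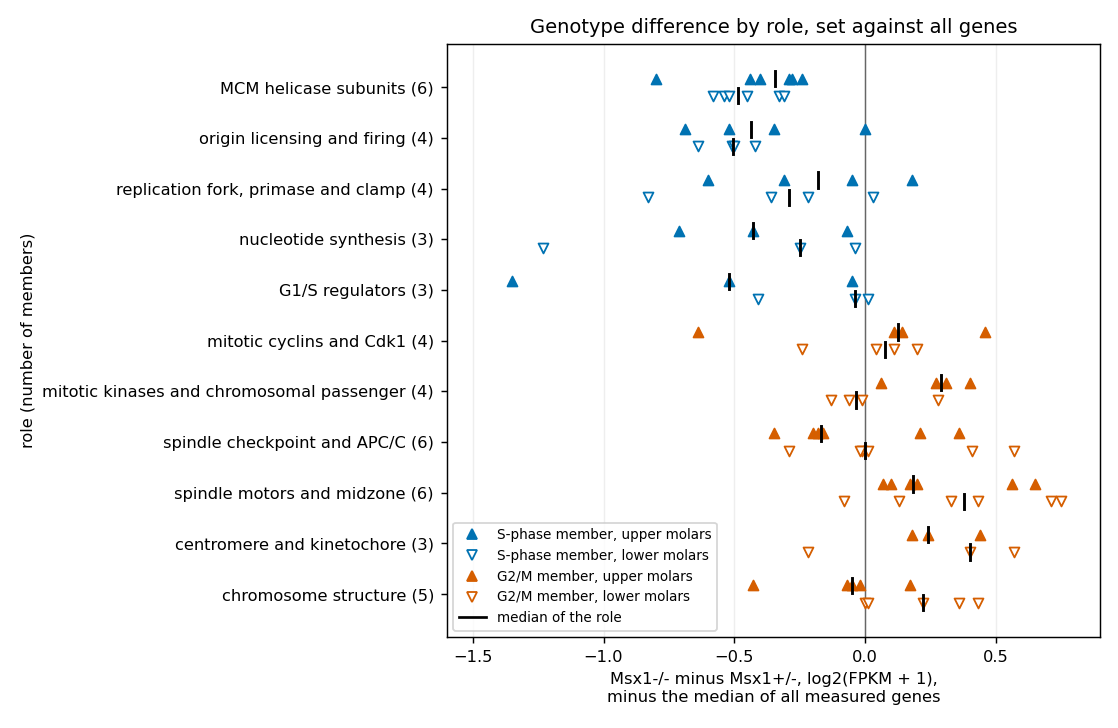
Genotype difference of each member on the log2(FPKM + 1) scale, minus the median of all measured genes, by role; filled triangles are upper molars, open triangles lower molars, and bars mark the role medians. All S-phase role medians lie below 0, from -0.52 (G1/S regulators, upper) to -0.04 (G1/S regulators, lower), and the medians of mitotic cyclins, spindle motors and centromere genes lie above 0 in both jaws.

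The G2/M members were scattered around the all-gene median. Of 28, 19 lay above it in upper molars and 19 in lower molars. Of the mitotic cyclins and their kinase, Cdk1 stood at 11.5, 13.5, 12.5 and 8.42 FPKM (0.11 upper, -0.62 lower). Ccna2, cyclin A2, which acts in S phase as well as G2, stood at 29.6, 31.2, 31.3 and 25.6 FPKM (0.08, -0.28). In both genes the mutant upper library lay within or just above the controls, and the mutant lower library was lowest. Ccna2 overlaps Exosc9 in the annotation. Ccnb1, cyclin B1, stood at 9.87, 11.8, 13.6 and 9.10 FPKM (0.43, -0.34), and the annotation lists a pseudogene copy, Ccnb1-ps. Ccnb2, cyclin B2, went the other way in upper molars, with 31.8, 18.9, 19.5 and 16.5 FPKM (-0.68, -0.19). As for E2f1, its control upper library stood alone at the top, with an upper against lower difference of 0.72 in controls.

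The mitotic kinases and their partner Birc5, survivin, had values a little above control in upper molars and below it in lower molars. Their differences ran from 0.03 (Plk1) to 0.37 (Aurka) in upper molars and from -0.52 (Aurkb) to -0.11 (Birc5) in lower molars. Relative to all genes the lower-molar values ran from -0.13 (Aurkb) to 0.28 (Birc5). Plk1, which acts at centrosome maturation and mitotic exit, stood at 14.5, 12.5, 14.9 and 8.92 FPKM. Aurkb, the kinase that corrects chromosome attachment, stood at 9.84, 10.3, 12.1 and 6.89 FPKM. In both, the genotypes overlapped and the mutant lower library was lowest.

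Genes of the spindle checkpoint and of the anaphase-promoting complex, which hold and then release the sister chromatids, had a median of -0.20 and -0.38, or -0.17 and 0.00 relative to all genes. Mad2l1, a checkpoint protein at unattached kinetochores, stood at 13.6, 12.5, 10.2 and 9.42 FPKM. Both mutants lay below both controls (-0.38, -0.37). Relative to all genes Mad2l1 was at -0.35 in upper and 0.01 in lower molars. Ttk, the checkpoint kinase Mps1, stood at 7.09, 5.35, 5.96 and 3.78 FPKM (-0.22, -0.41), with the mutant upper library between the controls. Ube2c, the ubiquitin-conjugating enzyme of the complex, was the most abundant G2/M member at 124, 88.0, 108 and 100 FPKM (-0.19, 0.18), with both mutants between the controls. Cdc20, its activator, stood at 9.53, 11.2, 12.2 and 6.66 FPKM (0.33, -0.67), the lowest lower-molar difference among G2/M members. The Cdc20 gene overlaps Elovl1 in the annotation. Bub1 was at 0.18 and -0.39, and Bub1b at -0.23 and 0.02.

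The spindle motors and midzone proteins separate the poles and complete cell division. Kif23, a kinesin of the central spindle that is needed for cytokinesis, stood at 6.98 and 8.16 FPKM in controls and 11.2 and 10.8 in mutants. Both mutants were above both controls (0.62 upper, 0.36 lower), the largest mean difference upward among the 48. Kif20a, another kinesin of the midzone, stood at 6.12, 6.80, 9.26 and 6.49 FPKM (0.53, -0.06), with only the mutant upper library above the controls. It overlaps Brd8 (6.13, 5.93, 7.41 and 7.31 FPKM) and Cdc23 (16.8, 14.3, 14.9 and 8.83 FPKM) in the annotation, from which it may not be separated. Nusap1, which bundles spindle microtubules near chromosomes, stood at 11.6, 8.82, 12.2 and 11.3 FPKM (0.06, 0.32). Its control lower library was lowest, and it overlaps Oip5, which was under 1 FPKM in every library. Kif11, Tpx2 and Prc1 had differences from 0.03 to 0.17 in upper molars and from -0.47 to 0.05 in lower molars. The median of these 6 genes was 0.19 and 0.38 relative to all genes, beside 0.24 and 0.40 for the 3 centromere genes and 0.29 and -0.04 for the mitotic kinases.

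At the centromere, Cenpf, a large kinetochore protein that also appears in late S phase, stood at 4.85, 4.75, 6.77 and 5.51 FPKM (0.41, 0.18). Both mutants were above both controls. Cenpe, the kinetochore kinesin, stood at 6.83, 7.29, 7.67 and 7.37 FPKM (0.15, 0.01), also apart, though by a narrow margin. Cenpa, the centromeric histone, stood at 16.5, 19.4, 19.2 and 12.4 FPKM (0.21, -0.61), with the mutant lower library alone at the bottom.

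The genes of chromosome structure held 2 of the most abundant G2/M members. Mki67, the proliferation marker Ki-67 that coats mitotic chromosomes, stood at 44.3, 35.2, 41.7 and 36.3 FPKM (-0.09, 0.04). Top2a, the topoisomerase that untangles sister chromatids, stood at 41.2, 40.9, 45.6 and 40.1 FPKM (0.14, -0.02). For both, the genotypes overlapped and the libraries lay close together. The condensin subunit Smc4 stood at 26.8, 20.5, 19.2 and 18.2 FPKM (-0.46, -0.17), with both mutants just below both controls. Smc2 (-0.05, -0.37) and the chromatin protein Hmgb2 (-0.10, -0.39) were also apart, with upper libraries nearly level. After rescaling none of the 4 G2/M genes whose mutants lay below both controls was still apart in that direction.

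**Figure D3:**
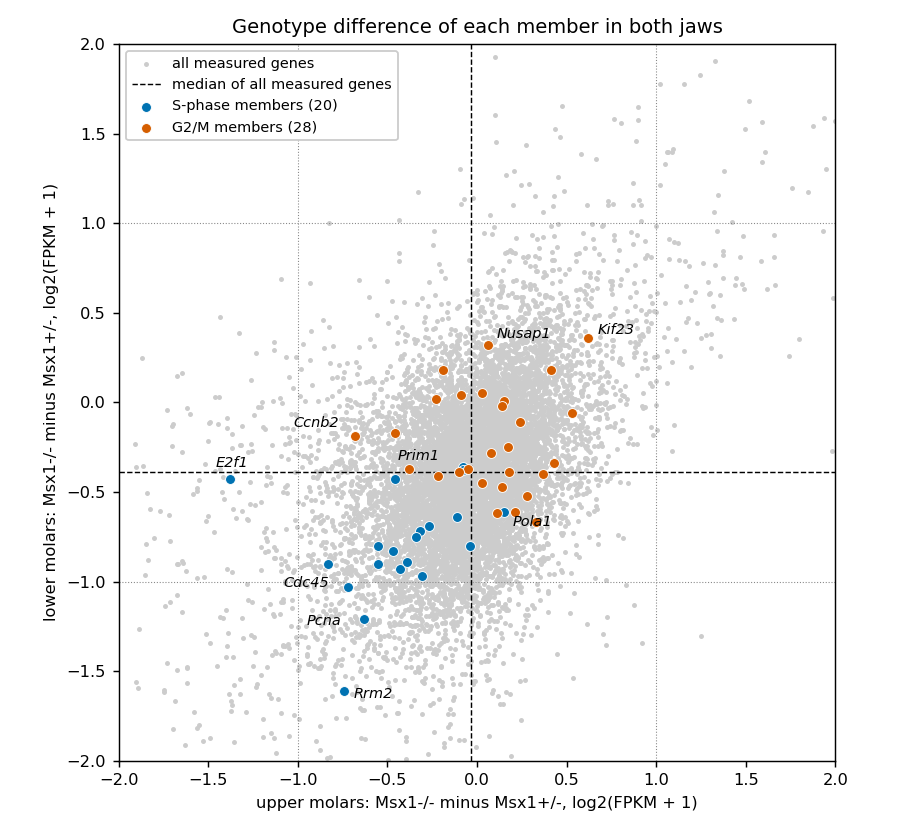
Genotype difference in upper molars (x axis) against that in lower molars (y axis), on the log2(FPKM + 1) scale, for the S-phase and G2/M members over all measured genes. The S-phase medians (-0.41 and -0.80) lie left of and below the G2/M medians (0.12 and -0.27), and 151 measured genes lie outside the plotted range of 2.

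Upper and lower molar differences come from separate libraries, so they can be set against each other. Of 20 S-phase genes 19 were below 0 in both jaws, the exception being Pola1, and 0 were above 0 in both. Of 28 G2/M genes 6 were below in both, 5 above in both and 17 of opposite sign. Over all 10536 genes, 5239 were below in both, 1377 above in both and 3920 of opposite sign. After rescaling, 18 S-phase genes were below in both and 0 above, while 1 G2/M gene was below in both, 11 were above and 16 were of opposite sign. Over all genes 3850 were then below in both and 2976 above. In single jaws, 54.2% of all genes were below 0 in upper molars and 82.5% in lower molars. Across the 48 members the differences in the jaws gave 0.528 for both Pearson's r and Spearman's rho, beside 0.531 and 0.442 over all genes. Within the 28 G2/M genes r was 0.038 and rho -0.064, and within the 20 S-phase genes 0.29 and 0.523. These are descriptions across genes that share the same 4 libraries.

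Set side by side, the S-phase and G2/M medians of the genotype difference were separated by the same amount in both jaws. The other summaries below were less alike between the jaws. The S-phase median minus the G2/M median of the genotype differences came to -0.53 for upper and to -0.53 for lower molars. As a ratio of FPKM + 1, not of FPKM itself, that is 30.9% and 31.0% lower. The difference of medians compares genes within the same libraries, so a common factor on a library moves both sides. In upper molars 19 of 20 S-phase genes lay below the G2/M median, and in lower molars all 20 did. In lower molars 14 S-phase genes had a difference below that of every G2/M gene, and in upper molars 4 did. As levels within a library, the S-phase median was above the G2/M median by 0.67 and 0.61 log2 units in controls, by 0.01 in mutant upper and by 0.28 in mutant lower molars. Summed S-phase FPKM was 0.693 and 0.841 times the summed G2/M FPKM in controls and 0.497 and 0.490 times in mutants.

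**Figure D4:**
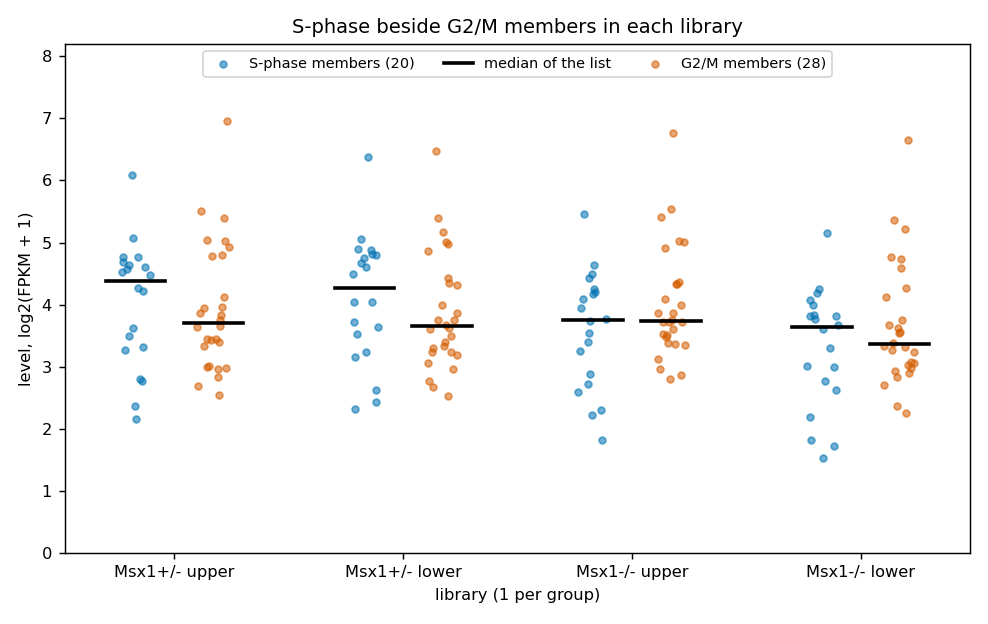
Level of the S-phase and G2/M members in each library, log2(FPKM + 1), with each gene as a point and the median of each set marked. The S-phase median is above the G2/M median by 0.67 and 0.61 in the controls and by 0.01 and 0.28 in the mutants.

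A fit of genotype and jaw to all 4 libraries with limma treats the jaws as replicates of the genotype effect. It leaves 1 residual degree of freedom, and here gave all genes the same spread. The libraries were not rescaled for the fit. The lower values of the whole mutant lower library thus enter each difference and p-value, with an all-gene median mean difference of -0.22. By this fit, with Benjamini-Hochberg adjustment over all 10536 genes, 4 members were lower in mutants. They were Rrm2 (mean difference -1.18, adjusted p 0.0027), Pcna (-0.92, adjusted p 0.0341), E2f1 (-0.90, adjusted p 0.039) and Cdc45 (-0.88, adjusted p 0.0496), each below control in both jaws. By the same limma fit, 5.39% of all genes were lower and 1.07% higher. No G2/M member passed, with a smallest adjusted p of 0.413 by limma, and 0 of 28 had an unadjusted p under 0.05, against 11 of 20 S-phase genes and 14.6% of all genes on the lower side.

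In the comparison of the jaws within a genotype, 0 of 48 members were called in either direction. Of all genes 1.48% were higher and 0.218% lower in upper molars of controls, and 3.22% and 0.408% in mutants. In controls the median upper minus lower difference was -0.13 for S-phase and 0.01 for G2/M genes, or -0.04 and 0.10 relative to all genes. In mutants it was 0.31 and 0.30, or 0.04 and 0.03 relative to all genes, where the all-gene median was 0.27. The members with a difference over 0.58 in controls were E2f1 (0.90) and Ccnb2 (0.72), both higher in upper molars, as were 4.19% of all genes. In mutants 6 members were higher in upper molars by that much, beside 18% of all genes: Cdc20 (0.79), Rrm2 (0.75), Aurkb (0.74), Plk1 (0.68), Cenpa (0.60) and Pola1 (0.59). Jaw and genotype differences share libraries, so the high control upper values of E2f1 and Ccnb2 enter both.

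Other genes of the same processes were looked at as listed by function. Of 63 further replication genes 62 were measured. Their median genotype difference was -0.16 (upper molars) and -0.50 (lower molars), or -0.13 and -0.11 relative to all genes, which was nearer to 0 than the -0.38 and -0.41 of the 20 members. In upper molars 1 of 62 was called lower (3.26% of all genes), in lower molars 8 were (9.43% of all genes), and 0 in both (1.59% of all genes). Both mutants lay below both controls for 35 of 62 and above for 0, against 41.3% and 9.52% of all genes. After rescaling the counts were 27 and 4, against 27.6% and 20.6% of all genes. The 3 with the largest mean differences were Shmt1, Gmnn and Chaf1b. Shmt1, which supplies one-carbon units for thymidylate synthesis, stood at 4.0, 4.1, 1.86 and 1.14 FPKM (-0.80, -1.25). Gmnn, geminin, the inhibitor of Cdt1, stood at 21.5, 10.7, 6.63 and 7.42 FPKM (-1.56, -0.48), with the control upper library high as for E2f1. Chaf1b, of the histone chaperone CAF-1, stood at 11.4, 11.5, 6.69 and 3.95 FPKM (-0.69, -1.34).

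Of 85 further mitotic genes 81 were measured, with medians of 0.04 in upper and -0.27 in lower molars, or 0.07 and 0.11 relative to all genes, close to those of the 28 members. In upper molars 0 of 81 were called and in lower molars 2 were lower, where 3.26% and 9.43% of all genes were lower. Both mutants lay below both controls for 17 of 81 and above for 6, against 41.3% and 9.52% of all genes. After rescaling the counts were 11 and 26, against 27.6% and 20.6% of all genes. The 3 with the largest mean differences, taken without rescaling, all lay below control. Tubb5, a beta tubulin present in most cells, stood at 295, 325, 260 and 138 FPKM (-0.18, -1.23), with the mutant lower library alone at the bottom. Cenph, a kinetochore protein, stood at 8.55, 7.75, 5.64 and 4.64 FPKM (-0.52, -0.63). Pbk, a mitotic kinase, stood at 10.5, 11.8, 9.21 and 5.53 FPKM (-0.17, -0.97).

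Among 32 regulators upstream of these genes (E2F and retinoblastoma families, D cyclins, kinases and kinase inhibitors), 31 were measured. In upper molars 3 of 31 were lower and in lower molars 8, beside 3.26% and 9.43% of all genes, and 2 were lower in both jaws, beside 1.59%. Ccnd2, cyclin D2, which with Cdk4 or Cdk6 relieves the block on E2F, stood at 136, 105, 41.2 and 29.1 FPKM (-1.70, -1.82). Cdkn1a, the kinase inhibitor p21, stood at 5.86, 7.91, 0.493 and 0.763 FPKM (-2.20, -2.34). An activator and an inhibitor of the cyclin-dependent kinases were thus both lower in mutants. The list's medians were -0.14 and -0.48, or -0.11 and -0.10 relative to all genes. The other activating E2F factors were picked after their values were seen. E2f2 stood at 5.07, 4.23, 2.37 and 1.98 FPKM and E2f3 at 11.5, 8.16, 5.39 and 2.69 FPKM, with both mutants below both controls, as for E2f1. The same held for 18 of the 31 regulators and 41.3% of all genes, or for 13 and 27.6% after rescaling.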

How the data were processed

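RNA-seq of 4 libraries was used. Per the labels, laser-captured tissue gave amplified cDNA (NuGEN Ovation RNA-Seq v2), and all libraries were run in the same lane. Strandedness is not stated. Alignment was to mm9 with Bowtie 0.12.7 and TopHat 1.4.1, per the submitters' processing notes. For the Cufflinks step a version was not given in the sources used here. The authors deposited, per the file headers, FPKM values and a coverage signal for 28107 transcript entries. Coverage per FPKM was constant within a library (1.05, 0.812, 1.09 and 0.924 for upper then lower control, and upper then lower mutant). Read counts could not be recovered, so the counting error of each value is unknown.

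FPKM was summed per gene name. Genes with a failed estimate in any library (66) and small RNA names (717) were left out, and those averaging 1 FPKM or more were kept (10536). Values were set on a log2(FPKM + 1) scale. The 48 members had 65 transcript entries, all with a status of OK, and 11 members had more than 1. The call was a log2 difference of at least 1, or 0.58 as a lower one, with no test since each group has 1 library. The members and lists were chosen with earlier results of these data known. FPKM in every library is given for the members called, for the 4 highest and 4 lowest mean genotype differences and the 3 most abundant of each phase, and for others where a role is described. Of the further lists, members called in both jaws, or else the 3 largest mean differences, are named, and 261 of 263 listed symbols matched. Promoters shown are the first 3 of each phase by size of mean difference with a match. Sequences are from RefSeq, GRCm38.p6, and are not mixed with mm9 coordinates. Python 3.11.15, numpy 2.4.6, pandas 2.3.3, R 4.3.3 and limma 3.58.1 were used, and the fit was tested on simulated data. Alternatives were a pseudocount of 0.1 or 5, no filter, genes averaging 5 FPKM or more, 3 rescalings (median of ratios, upper quartile, total), the highest transcript entry per gene, a call at 0.58, the limma fit, and G2/M genes without those that also act in S phase. Added after seeing the data was centring on 501 genes of like GC content, transcript length or level.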

Additional observations from a re-analysis of the deposited data

Results flagged for a closer look

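Some results went in opposite directions in the jaws, with 1 library behind each value, and the difference between the jaws was not tested. The G2/M median genotype difference was 0.12 in upper molars and -0.27 in lower molars, although relative to all genes it was 0.15 and 0.12. Pola1 was at 0.15 in upper and -0.61 in lower molars. Kif20a was at 0.53 and -0.06, Top2a at 0.14 and -0.02, but relative to all genes Kif20a was at 0.56 and 0.33 and Top2a at 0.17 and 0.36, above 0 in both jaws. Pola1 relative to all genes was at 0.18 and -0.22. The reverse order held for Ube2c, at -0.19 in upper and 0.18 in lower molars, and for Mki67, at -0.09 and 0.04, which relative to all genes were -0.16 and 0.57, and -0.05 and 0.43. None of these members was called in either jaw.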

How the results depend on the processing

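The S-phase minus G2/M difference kept its sign under all 12 alternatives in each jaw. It ran from -0.58 to -0.38 in upper and -0.58 to -0.39 in lower molars, with -0.38 and -0.39 at a pseudocount of 5. Dropping the filter could not move it, since every member passed, and the 3 rescalings shift both lists nearly alike. Those settings are thus little check of it. No result with a call reversed. In lower molars the 3 rescalings (median of ratios, upper quartile, total) gave G2/M medians of 0.13, 0.22 and 0.19, S-phase medians of -0.42, -0.33 and -0.35, Msx1 at -0.67, -0.58 and -0.61, and 1, 1 and 1 members lower in place of 3. Rrm2 was called lower under every alternative run (-1.73 to -1.14), whereas Pcna was at -0.80, -0.71 and -0.73 and Cdc45 at -0.68, -0.60 and -0.62 after rescaling, and Cdc45 at -0.50 from its highest transcript entry. A pseudocount of 0.1 gave 5 members lower there, and a call at 0.58 gave 19, with 6 lower and 1 higher in upper molars and 4 lower in both jaws. The limma fit gave 4 members lower, with E2f1 where the call at 0.58 in both jaws had Mcm7. A pseudocount of 5 gave S-phase medians of -0.29 (upper; -0.27 relative to all genes) and -0.60 (lower), and G2/M at 0.01 relative to all genes in lower molars. With no filter, which adds genes near 0 to the all-gene median, the values relative to all genes in lower molars were -0.76 (S-phase) and -0.22 (G2/M), and between jaws in mutants 0.28 and 0.27. Against genes of like level, chosen after seeing the data, they were -0.26 and 0.26. Between jaws in controls, rescaling to a common total gave 1 member higher. Among genes averaging 5 FPKM or more, the S-phase level minus the G2/M level became 0.81 and 0.95 in controls (upper, lower) and 0.21 and 0.40 in mutants. In controls it became 0.54 and 0.48 at a pseudocount of 5, and 0.93 and 0.76 without G2/M genes that also act in S phase. In mutant lower molars it was 0.13 from the highest transcript entries. Causes of these shifts were not tested beyond what each setting does by construction. No paired analysis was possible because the labels carry no replicate numbers, though the limma fit holds jaw as a term. With 1 library per group no replicate could be left out. Depth in reads is unknown, so small differences cannot be set against counting error.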

Other observations

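Longer G2/M transcripts tended to lie higher in mutant lower molars. Across the 28 G2/M members the genotype difference in lower molars and the log2 length of the longest transcript were related with Pearson's r of 0.377 and Spearman's rho of 0.425. In upper molars these were 0.178 and 0.083, and across the 20 S-phase members they were 0.083 and 0.111 in upper and 0.168 and 0.188 in lower molars. Over all 10536 measured genes the lower-molar values were 0.089 and 0.088. These are descriptions across genes that share the same libraries. The median longest transcript was 2894 bases for S-phase members, 2986 for G2/M members and 2868 for measured genes, and the median GC content was 49.3%, 46.2% and 50.2%. The kinase inhibitor Cdkn1c, picked after its values were seen, stood at 67.5, 59.6, 77.1 and 108 FPKM, highest in mutant lower molars. Another inhibitor, Cdkn1a, was lower in both mutants than in both controls. A link of either gene to the S-phase members was not tested.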
